A study of Mus musculus with 6 samples.

Results

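The genes described here encode 3 routes by which cells replace damaged or mispaired bases on 1 DNA strand. They are 35 mouse genes: 5 of mismatch repair, 17 of base excision repair and 13 of nucleotide excision repair. Members were chosen by symbol, and a probe counted as theirs when the RefSeq transcript printed in the scanner file belonged to that symbol. All 35 were on the array, through 45 of its 55681 probes, and all 35 were among the 13136 genes that passed the filter on dim probes and were tested. For 34 of them the probe used was well above background, by the scanner software's own flag, on all 6 arrays. The exception, Mlh3, was well above background on all 3 Tis21-GFP positive arrays and on 2 of the 3 Tis21-GFP negative ones.

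Cells of both groups were taken at embryonic day 14.5 from the mouse dorsal telencephalon, which becomes the cerebral cortex. Homozygous Tis21-GFP fathers were crossed to wildtype C57BL/6 mothers, so that all embryos, in both groups, were heterozygous for the GFP knock-in at Tis21 (Btg2). S-phase cells were sorted by a DNA dye and then by GFP, as Tis21-GFP positive or as Tis21-GFP negative. The series, by its title, asks how S phase shortens when progenitors commit to making neurons. Each group has 3 arrays, each from a pool of 30 hemispheres of 15 embryos and about 200000 sorted cells, so an array averages many embryos and the negative group holds every S-phase cell without the reporter. The authors kept 3 experiment sets out of a larger number, by a rule not given in the sources used here.

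Mismatch repair removes bases that the replicative polymerases paired wrongly: MutS proteins find the mispair and MutL proteins cut the new strand. Base excision repair begins with a glycosylase that clips out 1 altered base, after which an endonuclease opens the strand, a polymerase fills the gap and a ligase closes it. Nucleotide excision repair cuts out a short stretch around bulky lesions, which are found either anywhere in the genome or where RNA polymerase has stalled. Dividing neural progenitors copy their genome at each cycle, and defects of single-strand break repair are known to harm the developing brain.

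Values below are log2 intensities minus the array's own 75th percentile, taken over non-control probes, so 0 is the signal at that percentile. Levels are compared between arrays for 1 probe, never between probes. Differences are Tis21-GFP positive minus negative, with the moderated standard error (SE) of limma, and a gene was called when its Benjamini-Hochberg adjusted p over all 13136 genes was under 0.05. With 3 arrays against 3, an exact permutation test of 1 gene cannot go below 0.1, so it was not used.

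Across the series, probes well above background made up 51.2% to 56.2% of an array, and genes correlated at 0.983 to 0.992 between arrays of 1 group and 0.954 to 0.972 across groups. Btg2, the reporter's own locus, had a difference of 0.77 (adjusted p = 0.0139). The cortical factors Emx1, Emx2 and Pax6 were well above background on every array. So were the ventral telencephalon markers Dlx1, Dlx2, Dlx5, Gad2 and Lhx6. Gad1 was so on 1 positive and 3 negative arrays, and Dlx6, Gsx2, Lhx8 and Nkx2-1 did not pass the filter in either group. All 8 markers of the dorsal list passed, so this flag separates the 2 regions only in part. Dlx1 and Dlx2 were highest in replicate 1 of both groups (Dlx2 -0.06 on positive and -0.83 on negative array 1, -2.72 and -2.05 on arrays 2). All 12 intermediate progenitor markers were higher in positive cells and all 15 radial glia markers were lower. Markers of other cell types were also lower there: 11 of 11 tested for microglia and macrophages, 10 of 10 for meningeal and mesenchymal cells and 5 of 8 for endothelial cells and pericytes. The summed linear signal of the microglia list was 4.56 to 8.34 on positive and 16.0 to 21.9 on negative arrays, that of the mesenchymal list 12.3 to 19.6 against 38.5 to 43.6, and that of the endothelial list 9.55 to 10.6 against 8.26 to 9.45. Kdr supplied most of the endothelial sum and stood at 3.24 on positive and 2.79 on negative arrays. P2ry12, Col3a1, Lum, Pdgfra, Vtn, Abcc9, Pdgfrb and Rgs5 were well above background on no positive array, and Ptprc, Cdh5, Emcn, Tek, Tie1, Foxc1 and Twist1 did not pass the filter in either group. Of 5 erythroid markers tested, 1 was lower. Of 12 neuronal markers 5 were higher and 4 lower (summed signal 167 to 202 against 108 to 148), and of 6 ventral telencephalon markers 1 was lower. These shifts in cell makeup run alongside every result below, and their part in it was not tested. Fewer cells of a type and less RNA per cell cannot be told apart in such samples.

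Of the 35 repair genes, 7 rose in Tis21-GFP positive cells and 0 fell: Msh3 and Msh6 of mismatch repair, Tdg, Neil3, Apex1 and Polb of base excision repair, and Ercc5 of nucleotide excision repair. Their differences ran from 0.45 to 0.65, which is 1.36-fold to 1.57-fold. Among all tested genes 25.9% were called, 12.8% higher and 13.1% lower. By the same limma test at an unadjusted p under 0.05, 10 members were higher and 0 lower. At that threshold 3043 of the 13136 tested genes were higher and 2282 lower. The median difference of the members was 0.20, beside 0.12 over all tested genes, and 23 of the 35 lay above the median of all genes.

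**Figure D1:**
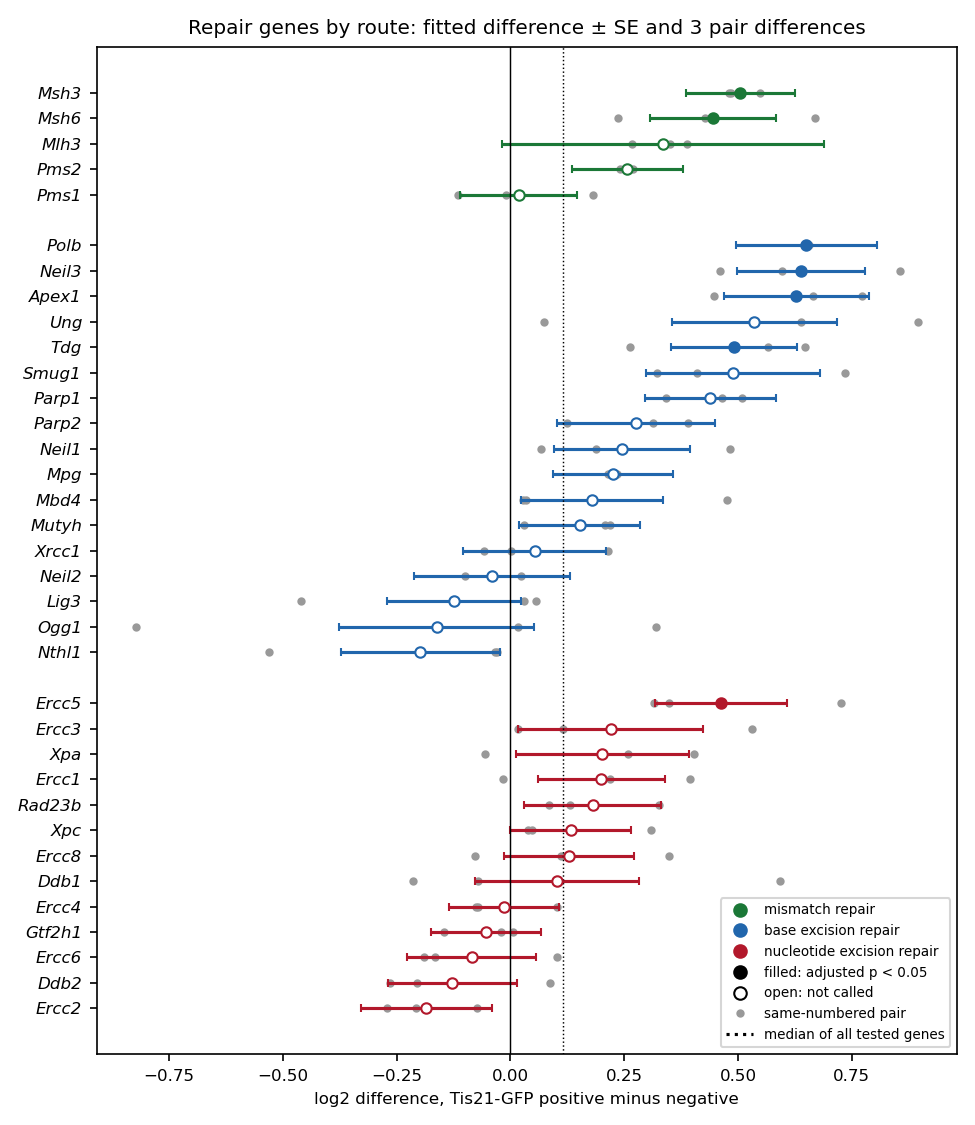
Log2 difference of each repair gene, Tis21-GFP positive minus negative (horizontal axis), grouped by route and ordered within it; coloured points are the fitted difference with its moderated SE, filled where adjusted p is under 0.05, and grey points are the differences of the 3 same-numbered array pairs. The dotted line is the median of all tested genes, 0.12, and the 7 filled points sit between 0.45 and 0.65.

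Counts and medians were set side by side for the 3 routes. In mismatch repair 2 of 5 members rose, in base excision repair 4 of 17 and in nucleotide excision repair 1 of 13. These shares were 40%, 23.5% and 7.7%, beside 12.8% of all tested genes called higher. The median difference was 0.33 in mismatch repair, 0.25 in base excision repair and 0.13 in nucleotide excision repair. The last lay 0.01 above the median of all tested genes, and the others 0.22 and 0.13 above it. Each route has an odd number of members, so each median is the value of a single gene that was not called. In mismatch repair it is Mlh3, the member not well above background on every array. In base excision repair it is Neil1, a dim probe that averaged -3.01 on positive and -3.25 on negative arrays. In nucleotide excision repair it is Ercc8, whose second probe stood at 0.26. The means over members were 0.31, 0.26 and 0.09 in the same order. No p-value is given for these medians, since the members were chosen as a list and are not replicates.

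Array by array the order was similar. Same-numbered arrays of the groups resembled each other and are called pairs here. In pairs 1, 2 and 3 the median member difference was 0.24, 0.39 and 0.27 for mismatch repair and 0.26, 0.22 and 0.23 for base excision repair. For nucleotide excision repair it was 0.08, 0.10 and -0.02, and for all tested genes 0.14, 0.10 and 0.08. Both of the first routes thus lay above nucleotide excision repair in each pair, while by this measure the order between mismatch and base excision repair changed from pair to pair. A second measure, the difference between the route's medians on the 2 arrays of a pair, gave 0.31, 0.35 and 0.42 for mismatch, 0.25, 0.31 and 0.22 for base excision and 0.11, 0.07 and 0.03 for nucleotide excision repair. By it mismatch repair lay above base excision repair in each pair, and the value of nucleotide excision repair in pair 3 was positive. Positive arrays stood above all negative arrays for 13 of the 35 members, where 28.2% of all genes did so: 3 of 5 in mismatch repair, 9 of 17 in base excision repair and 1 of 13 in nucleotide excision repair. Positive arrays stood below all negative arrays for 0 members, where 18.6% of all genes did so. Of the members, 20 were higher in all 3 pairs (40.3% of all genes) and 2, Nthl1 and Ercc2, were lower in all 3 (25% of all genes).

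**Figure D2:**
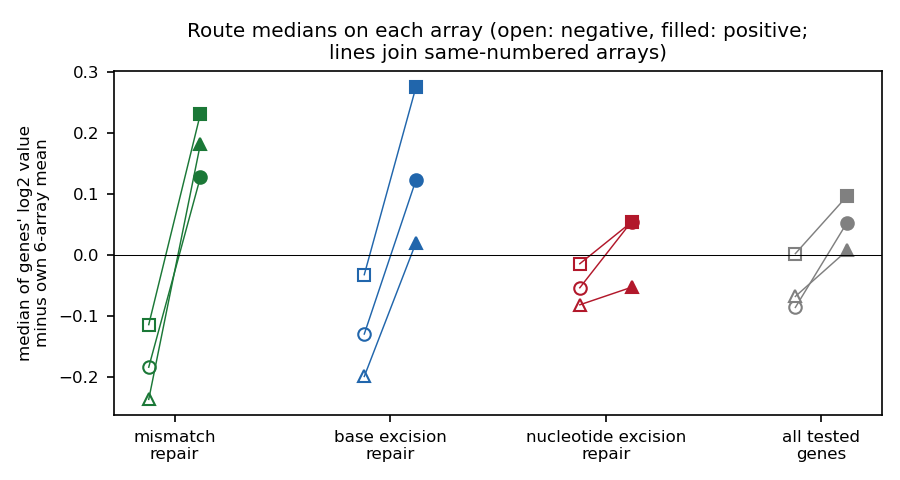
For each route and for all tested genes, the median over genes of a gene's log2 value minus its own mean over the 6 arrays (vertical axis), on negative (open) and positive (filled) arrays, with circles, squares and triangles for replicates 1, 2 and 3. Every line slopes upward, and those of nucleotide excision repair span 0.03 to 0.11 against 0.22 to 0.42 in the other routes.

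The gap between routes does not move when a constant is added to an array, so it is less tied to the scaling than any single value. The base excision median exceeded the nucleotide excision median by 0.12, and by 0.05 to 0.21 over the 17 alternative settings, of which leaving out negative array 3 gave the lowest and negative array 1 the highest. The mismatch median exceeded the nucleotide excision median by 0.21, with 0.13 to 0.35 over the same settings, the highest when positive array 1 was left out. Without negative array 2 it was 0.31. Mismatch minus base excision repair was 0.09 and ran from -0.07 to 0.25. That gap was negative with normexp background (-0.07), quantile normalization (-0.01), the authors' deposited values (-0.01) and without Tis21-GFP negative replicate 1 (-0.01), and it was 0.25 when Tis21-GFP positive replicate 1 was left out and 0.21 when Tis21-GFP negative replicate 2 was.

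In mismatch repair the lesion-finding subunits moved and the MutL partners did not pass. Msh3, which recognises small insertion and deletion loops, read 3.27, 3.29 and 3.37 on positive arrays 1 to 3 and 2.79, 2.81 and 2.82 on negative arrays. The 3 negative arrays were nearly level and all positive arrays lay above them. The difference was 0.50 ± 0.12 (SE, n = 3 per group, limma adjusted p = 0.0183). Msh6, which recognises single mispaired bases, read 4.37, 4.51 and 4.50 on positive and 4.13, 4.09 and 3.83 on negative arrays, a difference of 0.45 ± 0.14 (adjusted p = 0.0489). Its groups did not overlap either, and negative array 3 was the lowest of all. With pairs as a replicate block, Msh6 did not pass (adjusted p = 0.0566).

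Pms2, the MutL subunit whose endonuclease nicks the new strand, read 1.51, 1.60 and 1.63 on positive and 1.27, 1.34 and 1.37 on negative arrays. The groups did not overlap, but the difference of 0.26 ± 0.12 was not called (adjusted p = 0.153). Pms1, another MutL partner, had a difference of 0.02 with a 95% interval from -0.28 to 0.32. Mlh3, a MutL partner that also acts in meiosis, read -3.14, -2.18 and -3.28 on positive and -3.49, -2.57 and -3.55 on negative arrays. Replicate 2 was the highest in both groups, the spread within groups (SD 0.60 and 0.55) exceeded the difference of 0.33, and its interval ran from -0.48 to 1.15. The differences of Mlh3 in pairs 1, 2 and 3 were closer together, at 0.35, 0.39 and 0.27. With the replicate block it was not called either (limma adjusted p = 0.0779). Leaving out negative array 1 (0.50, adjusted p = 0.067) or negative array 3 (0.51, adjusted p = 0.067) ended the call of Msh3. That of Msh6 was lost without any 1 of the 6 arrays, at 0.35 to 0.50 and adjusted p between 0.0812 and 0.177.

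**Figure D3:**
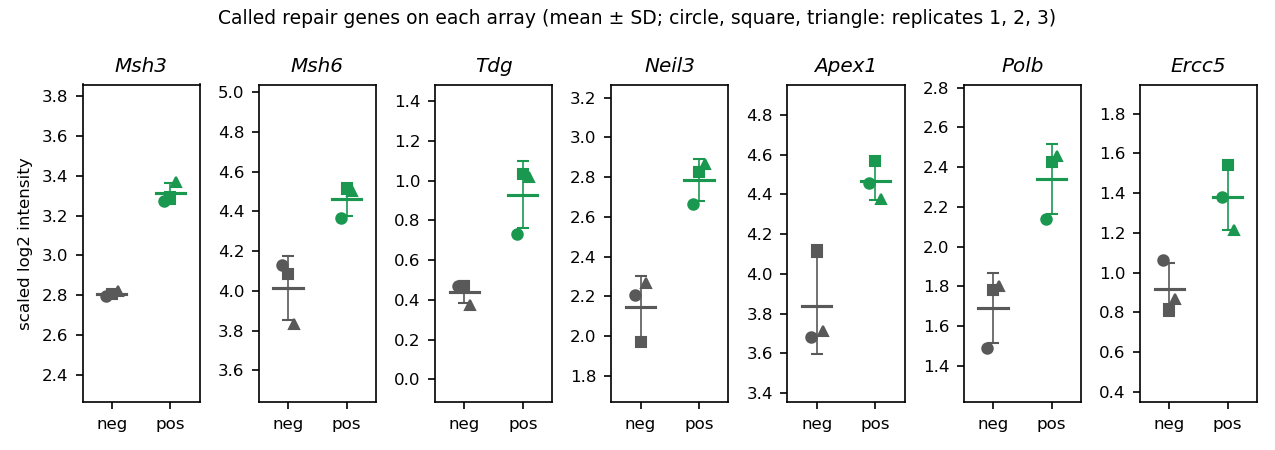
Scaled log2 intensity (vertical axis, of the same length in every panel) of the 7 members called higher, on the 3 negative (grey) and 3 positive (green) arrays, with the group mean and SD. In each panel all positive points lie above all negative ones, with the widest scatter of negative arrays in Apex1 (SD 0.24).

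The 250 bases before the start site are shown for 4 members that rose, and 30 bases around the E2F-type match for Msh6 and Nthl1, with matches to short motifs known from promoters of growth and cell-cycle genes. RefSeq promoters of build GRCm38.p6, from 250 bases before to 50 bases after a start, matched 30 of the 35 members, and Polb was among the 5 unmatched. The E2F-type letters searched were TTTCCCGC, TTTCGCGC, TTTGCCGC and TTTGGCGC, on both strands. E2F proteins switch on genes at the start of S phase. Capitals mark these, the GC box GGGCGG and the letters CCAAT, each on either strand. The last 50 bases searched are not shown, and 3 GC boxes of Neil3, from positions -4, 29 and 34, reach into them.

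Msh3, chr13:92355004-92355253, minus strand: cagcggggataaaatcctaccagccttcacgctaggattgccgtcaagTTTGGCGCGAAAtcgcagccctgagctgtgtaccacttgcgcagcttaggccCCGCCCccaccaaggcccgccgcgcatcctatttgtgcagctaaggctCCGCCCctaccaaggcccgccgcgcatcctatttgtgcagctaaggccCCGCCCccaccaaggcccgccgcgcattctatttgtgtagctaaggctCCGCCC
Neil3, chr8:53639066-53639315, minus strand: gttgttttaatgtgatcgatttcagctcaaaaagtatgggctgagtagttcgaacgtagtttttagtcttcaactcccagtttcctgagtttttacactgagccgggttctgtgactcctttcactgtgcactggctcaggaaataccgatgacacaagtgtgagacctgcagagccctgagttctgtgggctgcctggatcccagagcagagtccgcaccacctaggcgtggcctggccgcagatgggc
Tdg, chr10:82629588-82629837, plus strand: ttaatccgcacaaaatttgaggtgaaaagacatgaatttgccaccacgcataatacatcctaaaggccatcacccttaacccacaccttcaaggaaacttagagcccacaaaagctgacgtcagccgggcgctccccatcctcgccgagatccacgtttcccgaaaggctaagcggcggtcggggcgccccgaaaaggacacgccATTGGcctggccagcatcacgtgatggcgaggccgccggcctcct
Ercc5, chr1:44147494-44147743, plus strand: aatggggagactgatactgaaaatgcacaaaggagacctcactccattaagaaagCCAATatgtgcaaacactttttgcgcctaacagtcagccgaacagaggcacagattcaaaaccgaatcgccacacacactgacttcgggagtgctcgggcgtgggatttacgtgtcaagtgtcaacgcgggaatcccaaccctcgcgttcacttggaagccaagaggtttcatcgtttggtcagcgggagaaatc
Msh6, 30 bases around its match, chr17:87975054-87975083, plus strand: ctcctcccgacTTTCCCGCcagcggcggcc
Nthl1, 30 bases around its match, chr17:24632539-24632568, plus strand: ccgcgcgcgccTTTCGCGCgcaggtcctcc

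Msh3 held 2 overlapping E2F-type matches, TTTGGCGC from position -202 and TTTCGCGC, on the other strand, from -198. Its 4 GC boxes began at -150, -102, -54 and -6. The match of Msh6 began at position 16 after the start. The only other member with a match was Nthl1, at -132, a gene that was not called. E2F-type letters were thus in 3 of 30 members, 2 of them in mismatch repair, and in 2.6% of the 27025 genes of the table. The GC box was in 23 of 30 members (38.2% of genes) and CCAAT in 19 of 30 (41.1% of genes). The letters TTTGAA, the core of the element called CHR, were in 1 of 30 (20.2% of genes), in Ercc5. The table holds many noncoding genes, so these shares are no matched background, and a match is a description of letters only.

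Base excision repair begins with 11 glycosylase genes, of which 2 rose and 0 fell by the limma test, beside 12.8% of all tested genes called higher. At an unadjusted p under 0.05 it was 4 and 0, beside 3043 and 2282 of the 13136 tested genes. The median difference of the glycosylase genes was 0.23. Neil3, a glycosylase for oxidised bases that is known from proliferating cells, read 2.66, 2.83 and 2.86 on positive and 2.20, 1.97 and 2.27 on negative arrays. All positive arrays were above all negative ones, and the difference was 0.64 ± 0.14 (SE, adjusted p = 0.0139), larger than that of 91.6% of tested genes. It was the only called member whose call held without each array in turn, at 0.55 to 0.70. The call of Neil3 was lost with quantile normalization and with the authors' deposited values. It was also lost with the 75th percentile of probes well above background on all 6 arrays. Tdg, which removes thymine and uracil opposite guanine and acts in active DNA demethylation, read 0.73, 1.03 and 1.02 on positive and 0.47, 0.47 and 0.37 on negative arrays. Its difference was 0.49 ± 0.14 (adjusted p = 0.0346), with positive array 1 the nearest to the negative group. Tdg was no longer called when positive array 2 (0.44) or 3 (0.45) or any of negative arrays 1 (0.51), 2 (0.51) and 3 (0.46) was left out.

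The other uracil glycosylases were close to the threshold or short of it. Ung, the main enzyme against uracil in replicating DNA, read 6.66, 6.06 and 6.55 on positive and 5.77, 5.99 and 5.91 on negative arrays. Positive array 2 came close to the negative group, and the difference of 0.54 ± 0.18 missed the threshold (adjusted p = 0.0627). Without Tis21-GFP positive replicate 2 it passed, at 0.72 (adjusted p = 0.0138). Smug1, a second uracil glycosylase, read 0.28, 0.70 and 0.07 on positive and -0.04, -0.04 and -0.34 on negative arrays. Its difference was 0.49 ± 0.19, short of the threshold (adjusted p = 0.0934), but under the replicate block it was called (adjusted p = 0.0444), as it was without Tis21-GFP positive replicate 3 (0.63). Mbd4, which combines a methyl-CpG-binding domain with a thymine glycosylase, stood at 0.18 ± 0.16 (adjusted p = 0.414). The 4 uracil and thymine glycosylases, Ung, Tdg, Smug1 and Mbd4, had a median of 0.49. They were all higher in all 3 pairs, as were 40.3% of all tested genes. Tdg enters here by 1 of its 3 probes, and the others had differences of 0.21 and -0.09.

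Glycosylases for oxidised bases were spread around the median of all genes. The 6 members Neil1, Neil2, Neil3, Ogg1, Mutyh and Nthl1 had a median of 0.06, with 1 called higher and 0 lower (1 and 0 at an unadjusted p under 0.05). Ogg1, which removes 8-oxoguanine, read 0.12, -0.60 and -0.02 on positive and -0.20, 0.22 and -0.04 on negative arrays. Replicate 2 ran opposite to replicate 1, and the interval of the difference, from -0.66 to 0.33, was wide. Nthl1, for oxidised pyrimidines, had the lowest difference of all members, -0.20 ± 0.17 (adjusted p = 0.418). Mutyh, which removes adenine opposite 8-oxoguanine, stood at 0.15 ± 0.13, Neil1 at 0.25 ± 0.15 and Neil2 at -0.04 ± 0.17. Mpg, which removes alkylated bases, read 1.85, 1.90 and 1.71 on positive and 1.61, 1.68 and 1.48 on negative arrays. Its 3 pairs differed by nearly the same amount, and the difference, 0.23 ± 0.13, was not called (adjusted p = 0.23).

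Of the 6 genes that act after the glycosylase, the strand-opening and gap-filling enzymes rose and the ligase complex did not pass. Apex1, the main endonuclease at sites that lack a base, read 4.46, 4.57 and 4.38 on positive and 3.68, 4.12 and 3.71 on negative arrays. Negative array 2 lay well above the other negative arrays, and the difference was 0.63 ± 0.16 (adjusted p = 0.0236). Polb, the polymerase that fills the 1-base gap, read 2.14, 2.43 and 2.46 on positive and 1.49, 1.78 and 1.80 on negative arrays. Replicate 1 was the lowest in both groups, the 3 pairs differed by almost the same amount, and the difference of 0.65 ± 0.15 (adjusted p = 0.0188) was the largest of all members. Apex1 was no longer called when positive array 1 (0.63, adjusted p = 0.0599) or 2 (0.58), or negative array 1 (0.55) or 3 (0.57), was left out. That of Polb was lost without Tis21-GFP negative replicate 1 (0.55, adjusted p = 0.0743).

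Parp1, the main sensor of single-strand breaks, read 3.28, 3.41 and 3.17 on positive and 2.93, 2.94 and 2.66 on negative arrays. The groups did not overlap, and the difference of 0.44 ± 0.14 was just short of the threshold (adjusted p = 0.0573). Under the replicate block Parp1 was called (adjusted p = 0.0405). Parp2, a related sensor, had a difference of 0.28 ± 0.17 with overlapping groups. Xrcc1, the scaffold that gathers the later enzymes at a break, read 4.14, 4.43 and 3.96 on positive and 4.14, 4.21 and 4.02 on negative arrays. Its partner Lig3, a DNA ligase, read 1.16, 0.85 and 1.09 on positive and 1.13, 1.31 and 1.03 on negative arrays. Neither separated the groups: the 95% intervals ran from -0.31 to 0.42 for Xrcc1 and from -0.46 to 0.22 for Lig3. The intervals of Polb (0.29 to 1.01) and Apex1 (0.26 to 1.00) overlapped that of Xrcc1 and lay above that of Lig3. The contrast between these genes was not tested.

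In nucleotide excision repair 1 of 13 members rose, with 12.8% of all genes called higher. Ercc5, the nuclease that cuts on the 3′ side of a lesion, read 1.38, 1.54 and 1.22 on positive and 1.06, 0.82 and 0.87 on negative arrays. The groups did not overlap and the difference of 0.46 ± 0.15 passed narrowly (adjusted p = 0.0498). With the replicate block it did not pass (adjusted p = 0.0531). The partners of the other incision, Ercc1 and Ercc4, which form the nuclease on the 5′ side, had differences of 0.20 ± 0.14 and -0.01 ± 0.12. Ercc1 read 1.63, 1.70 and 1.37 on positive and 1.41, 1.30 and 1.38 on negative arrays, so that positive array 3 lay within the negative range. Ercc5 was no longer called when positive array 1 (0.46) or 2 (0.38) or any of negative arrays 1 (0.54), 2 (0.41) and 3 (0.44) was left out, with adjusted p from 0.0754 to 0.15.

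Genes that find the lesion anywhere in the genome did not pass. Xpc, which senses distorted DNA, stood at 0.13 ± 0.13 and its partner Rad23b at 0.18 ± 0.15. Ddb1 and Ddb2, which together find ultraviolet lesions, stood at 0.10 ± 0.18 and -0.13 ± 0.14. Ddb1 read 6.72, 6.38 and 6.27 on positive and 6.12, 6.59 and 6.34 on negative arrays, with pair 1 rising by 0.59 and pair 2 going the other way. The factors that act at stalled RNA polymerase, Ercc6 and Ercc8, stood at -0.08 ± 0.14 and 0.13 ± 0.14. Of these 6 recognition genes none was called (0 higher and 0 lower by limma, and 0 and 0 at an unadjusted p under 0.05).

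The remaining members open and check the DNA around the lesion. Ercc2 and Ercc3 are the helicase and translocase subunits of TFIIH, the complex that also starts transcription, and Gtf2h1 is a core subunit. Ercc2 read 3.07, 3.16 and 2.97 on positive and 3.34, 3.37 and 3.05 on negative arrays, lower in each of the 3 pairs. Its difference was -0.18 ± 0.14 and was not called (adjusted p = 0.36). Ercc3 read 1.02, 1.49 and 0.72 on positive and 0.91, 0.96 and 0.71 on negative arrays, where positive array 2 alone stood apart. Gtf2h1 was the most even of the 3, at 1.82, 1.77 and 1.83 on positive and 1.81, 1.92 and 1.85 on negative arrays, with an interval of its difference from -0.33 to 0.22. Xpa, which verifies the damage, read 2.74, 2.93 and 2.26 on positive and 2.48, 2.53 and 2.32 on negative arrays, so that the lowest value of all was a positive one. The TFIIH genes had a median of -0.05.

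Several probes were present for 8 members, 18 probes in all. The brightest probe on average was used, and the others are set beside it here. In a fit over all probes, in which 7.52% were called higher, 4 of the 45 member probes passed, those of Apex1, Neil3 and Polb and 1 of Msh3. The probes of Msh3 had differences of 0.50, 0.41 and 0.23, of which the first passed (adjusted p = 0.0361). Those of Tdg disagreed, at 0.49, 0.21 and -0.09, and the first did not pass in that fit (adjusted p = 0.0591). With the mean of its probes, Tdg had a difference of 0.20 (adjusted p = 0.253) and Msh3 one of 0.38 (adjusted p = 0.0975). The second probe of Pms2 stood at 0.39 (adjusted p = 0.0774), that of Xpa at 0.35, that of Mpg at 0.42 and that of Ercc8 at 0.26, each above the probe used. The second probe of Rad23b stood at 0.02 and that of Lig3 at -0.02.

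**Figure D4:**
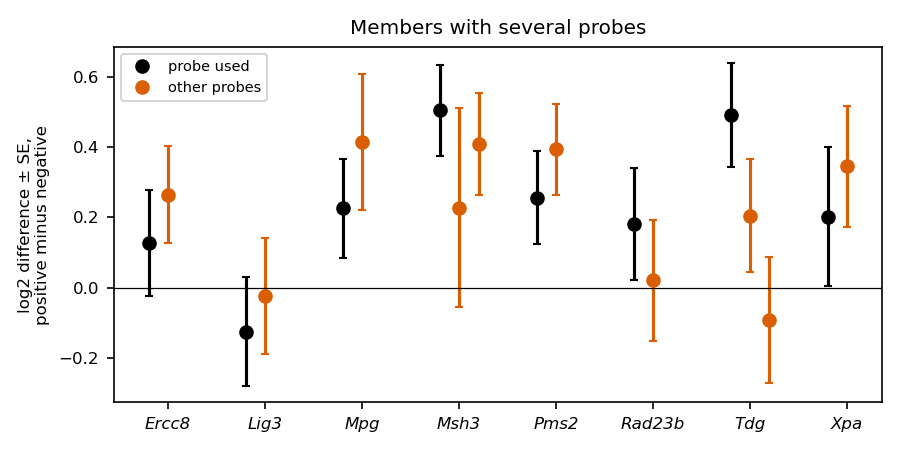
Log2 difference with moderated SE (vertical axis) for each probe of the 8 members with several probes, black for the probe used and orange for the others. The probes of Tdg spread from -0.09 to 0.49, whereas both probes of Pms2 lie between 0.26 and 0.39.

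Partner genes outside the list were counted by route, beside the 12.8% of all tested genes called higher. At an unadjusted limma p under 0.05, 3043 of the 13136 tested genes were higher and 2282 lower. Of 6 mismatch repair partners, 2 rose and 0 fell (3 and 1 at an unadjusted p under 0.05): the exonuclease gene Exo1 at 0.63 ± 0.19 (adjusted p = 0.0439) and Msh5, a meiotic MutS gene, at 0.43 ± 0.13. Of 10 tested partners in base excision and break repair, 1 rose and 0 fell (2 and 0 unadjusted), Tdp2, which frees DNA ends from trapped topoisomerase, at 0.44 ± 0.13. Of 15 tested nucleotide excision repair partners, 2 rose and 0 fell (3 and 0 unadjusted), the ubiquitin ligase subunit gene Rbx1 at 0.64 ± 0.13 and the nucleosome-binding gene Hmgn1 at 0.56 ± 0.12. The medians of these 3 partner lists were 0.29, 0.19 and 0.22. The base excision partners thus did not lie above the nucleotide excision partners, unlike the members of these routes. The genes of repair synthesis and ligation that the routes share with replication went further: 9 of 19 rose and 0 fell (14 and 0 unadjusted), with a median of 0.44. In 16 of 19 all positive arrays were above all negative ones, where 28.2% of all tested genes were. Fen1, the flap endonuclease, led at 1.33 ± 0.12, followed by the clamp Pcna at 0.90 ± 0.12 and the clamp loader genes Rfc4 at 0.90 ± 0.14 and Rfc3 at 0.90 ± 0.16. No member of the repair list reached the difference of Pcna. None of Exo1, Msh5, Tdp2, Rbx1 and Hmgn1 held its call in all the alternatives. For Rbx1 and Hmgn1 it was lost with quantile normalization and with the authors' deposited values. Over the alternatives, the number of shared replication genes called ran from 5 to 13.

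How many members were called depended on the scaling. Calls over all genes were 49.6% higher in the setting used here, and 65.8% with median centring, 29.1% when the 75th percentile was that of probes well above background on all 6 arrays, 39.6% with quantile normalization and 39.5% with the authors' deposited values. The median difference of all genes was 0.12, 0.30, -0.06, 0.02 and 0.02 in these settings. In the same order, 7, 9, 1, 2 and 2 of the 35 members were called higher, and 0 members lower in each. The share of all tested genes called higher was 12.8%, 17.9%, 7.1%, 8.6% and 8.5% in these settings. The count of members called higher is thus to be read against a share that changed with the scaling. The 2 members called with quantile normalization and with the authors' values were Tdg and Polb, and the 1 left with the percentile of detected probes was Apex1. Measured from the median of all genes, the members' median was 0.08 in the setting used here and 0.06 with quantile normalization or the authors' values. Base excision repair lay 0.13 above that median here and 0.16 and 0.17 above it in those settings, in that order, whereas the median of nucleotide excision repair minus that of all genes was 0.01 here and -0.03 there. With 1 array left out, the number of members called higher was 1 for negative array 1 and 2 for negative array 3. It was 4 for each of negative array 2, positive array 1 and positive array 2. Of all tested genes, 6.0% to 9.6% were called higher in these fits.

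**Figure D5:**
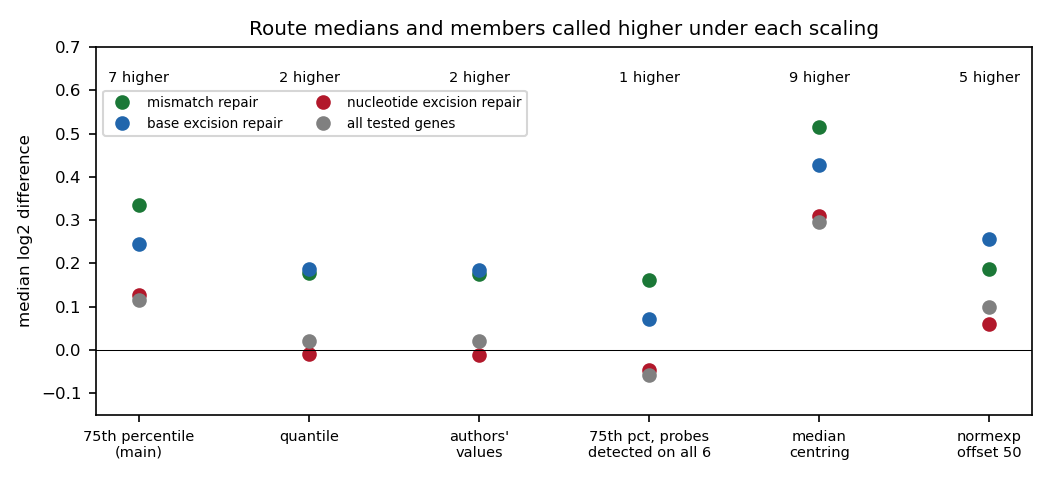
Median log2 difference (vertical axis) of each route and of all tested genes under 6 ways of scaling or background correction, with the number of members called higher written above. Median centring and the percentile of detected probes shift all points together, while normexp, quantile normalization and the authors' values place base excision repair above mismatch repair. Nucleotide excision repair lies next to all tested genes (its median minus theirs runs from -0.04 to 0.01) while the mismatch and base excision medians lie above it in each.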

How the data were processed

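Total RNA (50 ng, Cy3) of 6 samples was hybridised to 6 one-colour Agilent arrays on 1 slide. Per the file headers, intensity values come from Agilent Feature Extraction 10.7.1.1, whose processed signal is background-subtracted and detrended. The authors' deposited table holds log2 values with a normalization not stated in these sources; against the log2 processed signal of the same array they correlated at 0.999 or higher, and every column has a median of 4.66.

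Control and outlier spots were left out, spots of a probe were averaged, and log2 of the processed signal minus each array's 75th percentile was used. Probes were named through their RefSeq accession (26370 named, 29311 not). Probes well above background throughout 1 or both groups were kept. A gene was its kept probe with the highest mean. limma 3.58.1 in R 4.3.3 (lmFit, eBayes) compared the groups over 13136 genes, with Benjamini-Hochberg adjustment. The script was tested on simulated data. Nothing says that replicates came from separate litters or days beyond their number, so p-values measure the spread between these samples. Precision is limited by the number of arrays.

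Same-numbered arrays deviated together from their group means (r = 0.23, 0.13 and 0.37 for replicates 1, 2 and 3; highest other r = 0.06), so the numbers were taken as pairs, and the replicate block was an alternative. Array row 1 holds replicate 1 of both groups and row 2 the other 4 arrays; the row was also fitted as a block.

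Values on every array were given for called members and, in each route, for the 3 members with the largest differences; others shown with them were chosen after their values were seen. Of each partner list, up to 4 called genes with the smallest adjusted p were named. The members, lists and comparisons were chosen with earlier results of these data known. The 17 alternatives covered scaling, background, filter, probe choice, variance model, blocks and each array left out. The gaps between route medians and the motif search were added after the data were seen.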

Additional observations from a re-analysis of the deposited data

How the results depend on the processing

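In every alternative the number of members called lower was 0. The number called higher, 7 in the setting used, was 2 with quantile normalization, 2 with the authors' deposited values, 1 with the 75th percentile of detected probes (those well above background on all 6 arrays) and 1 with no filter on dim probes. Of all tested genes, 8.6%, 8.5%, 7.1% and 4.5% were called higher in these settings, in that order, and 12.8% in the setting used. Leaving out 1 array at a time, the members called higher ran from 1 to 6, beside 6.0% to 13.3% of all genes. With the replicate block 7 members were called higher, beside 15.4% of all genes. Parp1 and Smug1 were gained there and Msh6 and Ercc5 lost, and the pairing changed no other member's call. Of 119 values for the 7 called members under alternatives, 66 kept the call, 53 lost it and 0 turned sign. The medians moved with the scaling. Mismatch repair, 0.33, was 0.18 with quantile normalization, 0.52 with median centring, 0.16 with the percentile of detected probes, 0.18 with the authors' values and 0.19 with normexp background. Base excision repair, 0.25, was 0.43 with median centring and 0.072 with the detected probes. Nucleotide excision repair, 0.13, was -0.0095 with quantile normalization, 0.31 with median centring, -0.046 with the detected probes, -0.011 with the authors' values and 0.059 with normexp. Normexp gave 0.13 for mismatch minus nucleotide excision repair and -0.070 for mismatch minus base excision repair. With 1 array left out, the medians ran from 0.23 to 0.48 for mismatch, 0.17 to 0.30 for base excision and 0.028 to 0.17 for nucleotide excision repair. The gaps ran from 0.05 to 0.21 for base excision minus nucleotide excision, 0.16 to 0.35 for mismatch minus nucleotide excision and -0.0088 to 0.25 for mismatch minus base excision repair.

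Among 475 values for members that were not called, 436 kept their sign and side of the threshold, 8 passed it and 31 turned sign, each without a call in the setting used. With quantile normalization these were Ddb1 -0.18, Neil2 0.080, Rad23b -0.0095 and Xrcc1 -0.20, and with the authors' values Ddb1 -0.18, Neil2 0.079, Rad23b -0.011 and Xrcc1 -0.20. With median centring they were Ddb2 0.053, Ercc4 0.17, Ercc6 0.10, Gtf2h1 0.13, Lig3 0.057, Neil2 0.14 and Ogg1 0.019. With the percentile of detected probes they were Ddb1 -0.071, Ercc8 -0.046, Mutyh -0.021, Pms1 -0.16, Xpc -0.041 and Xrcc1 -0.12. With 1 array left out at a time, 7 members turned sign in at least 1 case, with ranges of -0.029 to 0.22 for Ddb1, -0.046 to 0.0061 for Ercc4, -0.0089 to 0.65 for Mlh3, -0.15 to 0.078 for Neil2, -0.30 to 0.055 for Ogg1, -0.049 to 0.072 for Pms1 and -0.071 to 0.16 for Xrcc1. The median centring and detected-probe scalings add a constant to each array, and the cause of the other changes was not tested. Mlh3, near background, is a member whose value the signal limits, Neil1 read about as low, and 3 arrays a group limit all members.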
